A study of Brassica napus with 12 samples.

Results

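The genes described here are the rapeseed copies of the MADS-box flowering regulators SOC1, SVP and AGL24 and of the closely related AGL14 and AGL19. They were chosen by name, as every gene of the count table whose best protein match carries the gene name SOC1, SVP, AGL24, AGL42, AGL71, AGL72, AGL14 or AGL19 from a species of the mustard family. This gave 37 of 100919 genes, all matched to an Arabidopsis thaliana protein. Counted by this name alone, SOC1 had 17 copies, AGL19 had 10, SVP and AGL24 had 4 each and AGL14 had 2. The names AGL42, AGL71 and AGL72 were carried by 0 genes. Whether all 17 SOC1-named genes are copies of SOC1 rather than of a close relative was not tested. The table's other annotation column, however, gave one AGL19-named gene on C03 (BnaC03G0557800ZS) an AGL42-like match, and gave AGL19-named genes on A02 (BnaA02G0397900ZS), C02 (BnaC02G0530100ZS) and the scaffold a SOC1-like match. Rapeseed (Brassica napus) is an allotetraploid whose A and C subgenomes hold most genes as near-identical pairs, and 18 copies lay on A chromosomes, 18 on C chromosomes and 1 on an unplaced scaffold.

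RNA from whole apical meristems was sequenced at the stage when inflorescence primordia give way to floral primordia. Slike plants (genotype label mutant) and Zlike plants (genotype label WT) are 2 classes from a second backcross between SX3 and ZS11, with contrasting inflorescence and plant architecture. SX3 is a natural mutant line and ZS11 is the wild-type line. Each of the 4 groups had 3 libraries from plants of an experimental station without treatment, and the labels state no age. Whether the 3 libraries of a group are separate plants is not stated, so a p-value here reflects library-to-library spread that may be purely technical. The labels are also silent on whether backcross plants and parents were sampled or sequenced together, and on the recurrent parent of the backcross. A difference that both backcross classes show from both parents therefore cannot be told apart from a difference between those sets of libraries.

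In Arabidopsis, SOC1 collects signals from day length, age, gibberellin and cold and starts flowering in the shoot apex, where it works with AGL24 to switch on the floral meristem gene LFY. SVP holds flowering back, partly by repressing SOC1 together with FLC. Once floral meristems form, SVP and AGL24 act together to keep floral organ genes off at first. AGL19 promotes flowering after cold, and AGL14 is known from root growth and from the transition to flowering.

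Total counts lay between 13445924 and 17778731 per library. Markers of the sampled tissue were present in every library. Summed over 22 genes of 7 shoot meristem markers found, the level was 388 to 404 CPM (read counts scaled to a common library size) in Slike, 479 to 486 in Zlike, 524 to 536 in SX3 and 728 to 740 in ZS11. The markers did not all follow this order. STM, which keeps meristem cells undifferentiated, was at 120, 144, 147 and 268 CPM in Slike, Zlike, SX3 and ZS11, whereas KNAT1 was at 66.1, 74.6, 130.9 and 89.5 CPM, WUS at 2.72, 1.06, 2.79 and 1.00 CPM and CLV3 at 1.26, 1.60, 1.12 and 0.821 CPM in the same groups. Genes of 5 floral organ markers, 27 in number, summed to 426 to 434 CPM in Slike, 111 to 116 in Zlike, 231 to 235 in SX3 and 43.2 to 44.8 in ZS11. The summed levels of both lists thus differed between the groups, and their part in the results that follow was not tested. In whole meristems, fewer cells of a type and less RNA per cell cannot be told apart.

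SOC1 transcripts were 2.66 to 2.93 times lower in both backcross classes than in either parent. Summed over the 17 copies, the level was 52.3, 54.7 and 51.4 CPM in the Slike libraries and 54.1, 53.1 and 52.2 in the Zlike libraries. It was 136, 143 and 144 CPM in the SX3 libraries and 149, 156 and 159 in the ZS11 libraries. No backcross library reached the level of any parental library. The sum was 2.91-fold lower in Zlike than in ZS11 and 2.68-fold lower in Slike than in SX3, whereas Slike and Zlike averaged 52.8 ± 1.67 and 53.1 ± 0.937 CPM (SD, n = 3 each). CPM values here are scaled by the trimmed mean of M-values (TMM) over all 12 libraries.

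The most abundant copy was SOC1 on A03 (BnaA03G0221300ZS, bases 11493218 to 11495603, minus strand). It was at 25.7, 28.0 and 22.8 CPM in Slike, at 26.2, 24.7 and 23.9 in Zlike, at 84.9, 87.4 and 86.6 in SX3 and at 88.9, 93.4 and 97.1 in ZS11. Both classes lay far below both parents with no overlap. The log2 fold change was -1.90 ± 0.05 (SE) for Zlike against ZS11 (edgeR adjusted p = 1.8e-65) and -1.76 ± 0.05 for Slike against SX3 (edgeR adjusted p = 3.8e-61). Between the classes it did not pass the test, with a log2 fold change of 0.03 ± 0.07 for Slike against Zlike (edgeR adjusted p = 0.82) and a 95% interval from -0.11 to 0.17.

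The copy on A05 (BnaA05G0054300ZS, bases 2960497 to 2967284, minus strand) came next. It was at 11.5, 12.0 and 13.6 CPM in Slike, 16.6, 15.4 and 15.4 in Zlike, 25.4, 27.2 and 28.3 in SX3 and 34.8, 33.8 and 33.5 in ZS11. All 4 groups stood apart in this copy. It fell by 1.11 ± 0.07 on the log2 scale in Zlike against ZS11 and by 1.12 ± 0.08 in Slike against SX3, and it was the 1 SOC1 copy of 9 tested that also fell in Slike against Zlike, by 0.35 ± 0.10 (edgeR adjusted p = 0.0022), in a comparison that called 27.2% of all genes.

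The C subgenome copies on C04 (BnaC04G0060400ZS, bases 5374819 to 5377274, minus strand) and C03 (BnaC03G0260300ZS, bases 16088593 to 16091019, minus strand) were lower still but moved the same way. The C04 copy was at 3.50, 3.49 and 2.76 CPM in Slike, 3.58, 3.24 and 4.01 in Zlike, 13.8, 16.2 and 15.8 in SX3 and 9.62, 10.2 and 10.2 in ZS11. It was the 1 SOC1 copy called higher in SX3 than in ZS11. Its log2 fold change was -1.47 ± 0.14 for Zlike against ZS11 and -2.24 ± 0.13 for Slike against SX3. The C03 copy was at 3.14, 2.86 and 3.37 CPM in Slike, 1.65, 2.35 and 2.36 in Zlike, 7.17, 7.21 and 9.40 in SX3 and 9.16, 10.5 and 10.8 in ZS11. Backcross and parental libraries did not overlap in this copy. It fell by 2.25 ± 0.16 on the log2 scale in Zlike against ZS11 and by 1.35 ± 0.16 in Slike against SX3. Slike against Zlike gave 0.56 ± 0.22 (edgeR adjusted p = 0.050), which passed with DESeq2's size factors (0.049) and in the fit on 12 libraries (0.032).

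**Figure D1:**
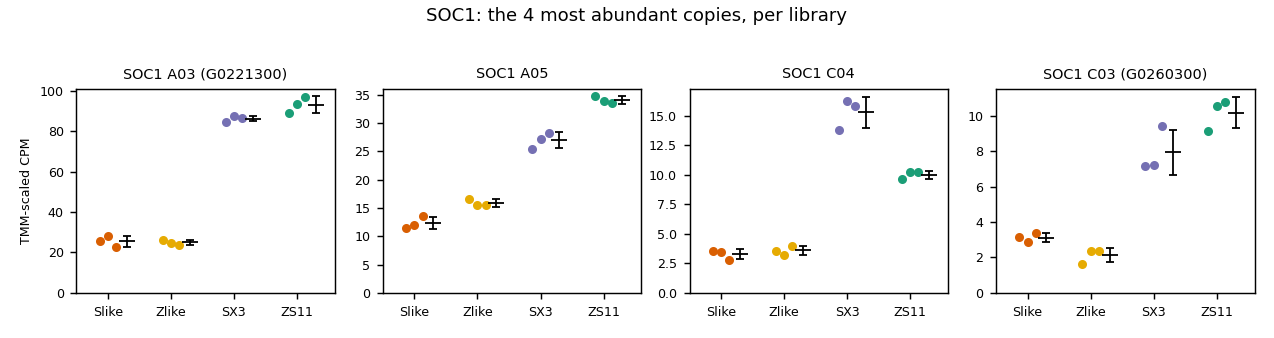
TMM-scaled CPM (y axis, from 0) of the 4 most abundant SOC1 copies in Slike, Zlike, SX3 and ZS11, 1 panel a copy. Dots are libraries and black bars are the mean ± SD over 3 libraries; in all 4 panels the Slike and Zlike libraries lie below every SX3 and ZS11 library.

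These 4 copies were lower in both backcross classes than in both parents in all 4 comparisons between a class and a parent, and so was SVP on C08. That is 5 of the 26 members tested, beside 3.98% of the 51650 genes tested, and the 4 comparisons share libraries. SVP on C08 is among the 5 through a small difference between Zlike and ZS11 that did not hold without Zlike replicate 3 (edgeR adjusted p = 0.056) or under upper-quartile scaling (0.052). SOC1 on A03, C04 and C03 were lower by at least 2-fold in all 4 comparisons, 3 members of 26 beside 0.651% of all genes. The genes next to them did not fall as far in Zlike against ZS11. Among the 20 nearest tested genes, 10 on each side, the number that fell as much as the copy was 0 for each of the 4, and the neighbours' median log2 fold change was -0.18 around A03, -0.48 around A05, -0.03 around C04 and -0.05 around C03. In Slike against SX3 it was 1 of 20 around A03 and around A05, and 0 around C04 and C03.

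Together these 4 copies made up 83.7% ± 1.11 of the SOC1 level in Slike, 87.6% ± 1.35 in Zlike, 96.5% ± 0.511 in SX3 and 95.3% ± 0.209 in ZS11 (SD, n = 3 each). The other 13 copies summed to 8.60 ± 0.326 CPM in Slike, 6.60 ± 0.664 in Zlike, 4.88 ± 0.661 in SX3 and 7.27 ± 0.454 in ZS11. This division was made after the values were seen and was not tested. The share of the A03 copy alone was 48.2% in Slike, 47.0% in Zlike, 61.1% in SX3 and 60.2% in ZS11.

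Of the remaining SOC1 copies, 7 entered a test, each at 0 to 2.44 CPM in any library. The pair on A09 (BnaA09G0077400ZS) and C09 (BnaC09G0068700ZS) did not pass the test in any of the 6 comparisons, although the A09 copy passed in Slike against SX3 without SX3 replicate 2 (adjusted p = 0.040) and in the fit on those 6 libraries alone (0.049). The A09 copy averaged 2.21, 1.82, 1.48 and 1.58 CPM in Slike, Zlike, SX3 and ZS11. Several of the rare copies were near or at 0 in SX3. SOC1 on A10 (BnaA10G0089100ZS) had 35 counts in Slike, 37 in Zlike, 3 in SX3 and 41 in ZS11, summed over the libraries of a group. SX3 was 12.6-fold lower than ZS11, with a 95% counting interval from 4.02 to 63.7. The A06 copy (BnaA06G0275000ZS) had 28 counts in Slike, 42 in Zlike, 0 in SX3 and 22 in ZS11. Against a floor of 3 counts per library, it was at least 3.23-fold higher in Slike than in SX3, at least 4.60-fold higher in Zlike than in SX3 and at least 2.34-fold lower in SX3 than in ZS11. Intervals and floors cover counting error only.

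A further A03 copy (BnaA03G0138200ZS) rose by 2.47 ± 0.50 on the log2 scale in Slike against SX3 (edgeR adjusted p = 7.5e-06), at 1.31, 1.19 and 1.01 CPM in Slike and 0.222, 0.360 and 0.0591 in SX3. The low copies on A04 (BnaA04G0287900ZS) and on C03 (BnaC03G0160100ZS) fell in Zlike against ZS11, by 2.02 ± 0.50 and 1.58 ± 0.49 on the log2 scale. Zlike held 10 counts of the A04 copy and 13 of the C03 copy, against 44 and 42 in ZS11. The C03 call was lost without Zlike replicate 2 (edgeR adjusted p = 0.087). Another 6 SOC1 copies and 5 AGL19 copies entered no test, with at most 13 counts in a library, and 2 of these 11 had 0 counts in all libraries.

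Between the parents themselves the summed SOC1 level differed little, at 141 ± 4.30 CPM in SX3 and 155 ± 4.95 in ZS11 (SD, n = 3 each), whereas single copies differed. In SX3 against ZS11, 23 of the 37 members entered the test, of which 6 rose and 14 fell. Over all genes tested 69.3% were called in this comparison, 33.4% higher and 35.9% lower. The median log2 fold change of the 23 was -0.37, beside -0.01 over all genes tested. SOC1 had 9 copies tested, with 1 higher, 5 lower and 3 not called. The largest of these falls was that of the rare A10 copy, with 3 counts in SX3 and 41 in ZS11. SOC1 on A03 had a log2 fold change of -0.11 ± 0.04 (edgeR adjusted p = 0.0093), a call that did not hold without ZS11 replicate 3 (0.072), under upper-quartile scaling (0.25) or in DESeq2 (0.050). The A05 copy fell by 0.33 ± 0.06 and the C04 copy rose by 0.62 ± 0.10 on the log2 scale. SOC1 on C03 (BnaC03G0260300ZS) fell by 0.34 ± 0.12, but the libraries of the parents overlapped and the call was lost without SX3 replicate 1 (edgeR adjusted p = 0.058) or SX3 replicate 2 (0.061). The lower C03 copy (BnaC03G0160100ZS) fell by 1.13 ± 0.42, a call lost with DESeq2 (adjusted p = 0.071), without SX3 replicate 2 (0.095) and without ZS11 replicate 3 (0.075).

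SVP behaved differently: all 4 copies rose in SX3 against ZS11, beside 33.4% of all genes higher. All 4 were also lower in both backcross classes than in SX3. Beside this, 23.9% of all genes were lower for Slike and 29.6% for Zlike. Summed over the 4 copies, SVP was at 179, 180 and 168 CPM in Slike, 214, 217 and 209 in Zlike, 324, 324 and 331 in SX3 and 193, 199 and 198 in ZS11. The SX3 libraries stood above all others. Per length of the gene model, in FPKM (read counts scaled to gene length and library size), SVP on A09 averaged 138, 169, 225 and 138 in Slike, Zlike, SX3 and ZS11. SOC1 on A03 averaged 40.4, 39.6, 133 and 141 FPKM in the same groups. SVP on A09 was therefore the member with the highest mean in Slike, Zlike and SX3, while in ZS11 SOC1 on A03 and SVP on A09 were close. SVP on C08 averaged 74.6, 92.5, 112 and 96.0 FPKM, and AGL24 on A03 averaged 64.6, 81.6, 93.5 and 83.0 FPKM.

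The copy on A04 (BnaA04G0147200ZS, bases 16020772 to 16024146, plus strand) carried the largest of these SVP differences. It was at 18.7, 16.7 and 17.6 CPM in Slike, 17.8, 17.0 and 18.6 in Zlike, 66.3, 71.8 and 73.1 in SX3 and 15.3, 13.7 and 13.9 in ZS11. Only the SX3 libraries were high, and the backcross classes lay just above ZS11 without overlap. The log2 fold change was 2.30 ± 0.06 for SX3 against ZS11, a 4.92-fold higher level (edgeR adjusted p = 3.0e-71). Slike against Zlike gave -0.01 ± 0.08 (edgeR adjusted p = 0.95), with a 95% interval from -0.18 to 0.16. The A04 copy made up 21.6% ± 0.969 of the SVP level in SX3, against 7.29% ± 0.550 in ZS11, 10.1% ± 0.696 in Slike and 8.37% ± 0.523 in Zlike. None of its 20 nearest tested genes rose as far in SX3 against ZS11, and their median log2 fold change was 0.08.

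The other SVP copies changed less. SVP on A09 (BnaA09G0591400ZS, bases 59225714 to 59227427, minus strand) was at 83.8, 84.2 and 80.0 CPM in Slike, 100.2, 105 and 97.5 in Zlike, 139, 134 and 140 in SX3 and 83.1, 88.6 and 87.7 in ZS11. It was high in SX3, intermediate in Zlike and overlapped between Slike and ZS11. The log2 fold change was 0.68 ± 0.03 for SX3 against ZS11 and -0.29 ± 0.04 for Slike against Zlike (edgeR adjusted p = 1.8e-09). SVP on C04 (BnaC04G0438900ZS), which shares 9 flanking gene names with the A04 copy, rose by 0.74 ± 0.07 in SX3 against ZS11 and fell by 0.38 ± 0.08 in Slike against Zlike. SVP on C08 (BnaC08G0443200ZS) averaged 58.0 ± 3.57 CPM in Slike, 71.9 ± 1.53 in Zlike, 89.2 ± 0.832 in SX3 and 78.3 ± 1.09 in ZS11 (SD, n = 3 each). It fell by 0.31 ± 0.05 in Slike against Zlike and rose by 0.19 ± 0.04 in SX3 against ZS11. Its lower level in Zlike than in ZS11, a log2 fold change of -0.12 ± 0.04 (edgeR adjusted p = 0.010), did not hold without Zlike replicate 3 (0.056) or under upper-quartile scaling (0.052).

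AGL24 was lower in both mutant-labelled groups, SX3 and Slike, than in the WT-labelled groups. Summed over 4 copies it was at 124, 126 and 126 CPM in Slike, 158, 157 and 151 in Zlike, 127, 118 and 121 in SX3 and 176, 171 and 179 in ZS11. Slike and SX3 libraries overlapped, and both stayed below every Zlike and ZS11 library. All 4 copies fell in Slike against Zlike, by 0.16 ± 0.06 to 0.42 ± 0.06 on the log2 scale, beside 13.4% of all genes, and the smallest of these falls, on A01, was lost under several alternatives. In SX3 against ZS11, 3 copies fell, beside 35.9% of all genes, and the A03 copy rose.

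AGL24 on C01 (BnaC01G0180300ZS, bases 13333023 to 13335667, minus strand) differed most between the parents. It was at 22.7, 23.7 and 27.5 CPM in Slike, 30.0, 30.2 and 31.5 in Zlike, 14.0, 10.7 and 12.4 in SX3 and 40.5, 38.0 and 35.4 in ZS11. None of the 4 groups overlapped. Its log2 fold change was -1.63 ± 0.08 for SX3 against ZS11 (edgeR adjusted p = 1.3e-43) and -0.31 ± 0.07 for Slike against Zlike (edgeR adjusted p = 0.00020). Of its 20 nearest tested genes 3 fell as far in SX3, each by 4-fold or more, and their median log2 fold change was -0.35.

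AGL24 on C07 (BnaC07G0458500ZS, bases 55683788 to 55689230, minus strand) was at 34.8, 35.9 and 34.5 CPM in Slike, 48.6, 45.4 and 46.6 in Zlike, 34.2, 32.9 and 34.8 in SX3 and 53.6, 50.1 and 57.4 in ZS11. Both mutant-labelled groups were low in this copy. It fell by 0.66 ± 0.05 in SX3 against ZS11 and by 0.42 ± 0.06 in Slike against Zlike (edgeR adjusted p = 7.5e-10). AGL24 on A03 (BnaA03G0480400ZS), which shares 12 flanking gene names with the C07 copy, averaged 31.8 ± 0.878 CPM in Slike, 40.1 ± 1.78 in Zlike, 47.2 ± 1.74 in SX3 and 42.9 ± 2.11 in ZS11. It fell by 0.34 ± 0.06 in Slike against Zlike. Its rise of 0.14 ± 0.05 in SX3 against ZS11 (edgeR adjusted p = 0.013) was lost with DESeq2 (adjusted p = 0.066), without SX3 replicate 1 (0.081) and without ZS11 replicate 2 (0.11). AGL24 on A01 (BnaA01G0141400ZS) fell by 0.53 ± 0.06 in SX3 against ZS11. Its fall of 0.16 ± 0.06 in Slike against Zlike came from overlapping libraries (edgeR adjusted p = 0.038) and was lost with DESeq2 (adjusted p = 0.18) and without Slike replicate 1 (0.11), Slike replicate 3 (0.13), Zlike replicate 1 (0.089) or Zlike replicate 2 (0.24). The gene models of the A01 and C07 copies are 2121 and 1605 bases long, against 501 on A03 and 666 on C01. Whether the longer models count reads of other transcripts was not tested.

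**Figure D2:**
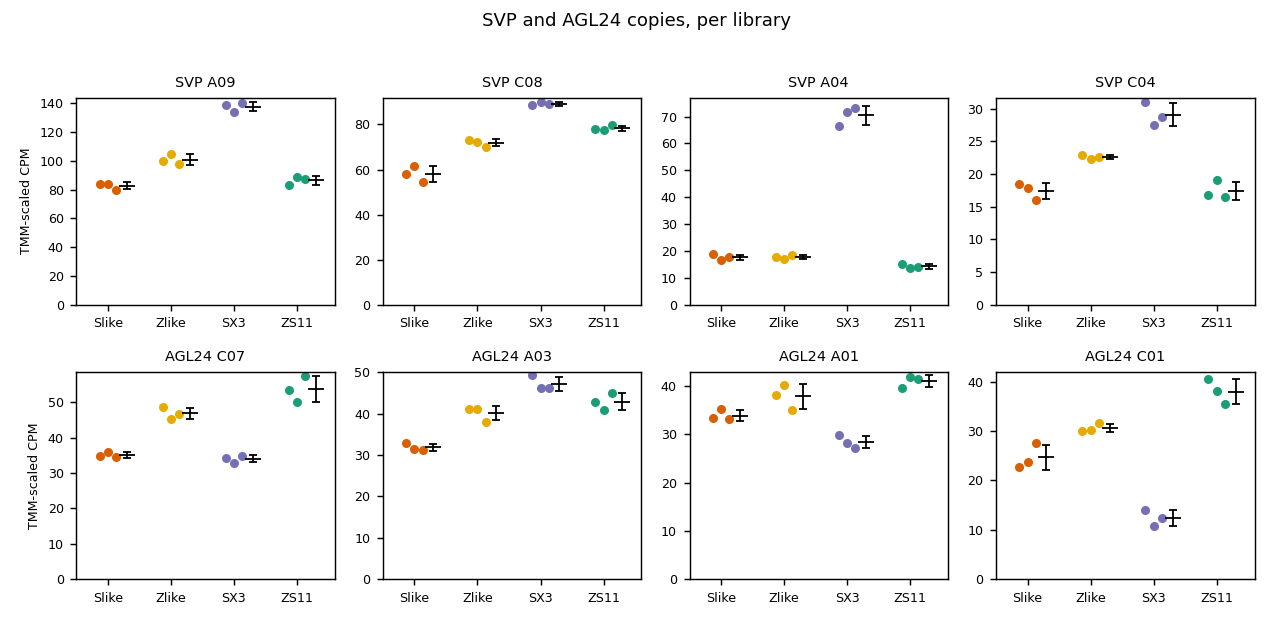
TMM-scaled CPM (y axis, from 0) of the 4 SVP copies (upper row) and 4 AGL24 copies (lower row) in Slike, Zlike, SX3 and ZS11. Dots are libraries and black bars are the mean ± SD over 3 libraries; SVP on A04 stands near 70.4 CPM in SX3 and at 14.3 to 17.8 CPM elsewhere, while AGL24 on C01 is lowest in SX3, at 12.3 CPM.

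AGL14 and AGL19, the rarer relatives of SOC1, were lower in SX3 than in ZS11 in both AGL14 copies and in all 4 AGL19 copies tested, beside 35.9% of all genes lower in this comparison. Among AGL19 copies in no test, BnaA01G0128100ZS on A01 had 11 counts in SX3 and 0 in ZS11. Another on C03 (BnaC03G0732700ZS) had 29 and 20, and no copy without any test had fewer counts in SX3. The identifiers of all genes end in ZS, and whether reads of SX3 alleles were assigned less often was not tested. AGL14 on A09 (BnaA09G0245500ZS, bases 17885060 to 17891816, minus strand) was at 4.89, 6.42 and 5.25 CPM in Slike, 5.72, 6.74 and 6.22 in Zlike, 0.739, 1.22 and 0.532 in SX3 and 7.01, 6.39 and 6.77 in ZS11. The SX3 libraries were the only ones under 2 CPM. Its log2 fold change was -3.04 ± 0.22 for SX3 against ZS11, an 8.20-fold lower level (edgeR adjusted p = 3.4e-26), and 2.75 ± 0.23 for Slike against SX3. The partner on C09 (BnaC09G0289100ZS) averaged 3.23 ± 0.643 CPM in Slike, 4.67 ± 0.755 in Zlike, 0.712 ± 0.170 in SX3 and 2.19 ± 0.505 in ZS11. It fell by 1.60 ± 0.30 in SX3 against ZS11 and rose by 1.08 ± 0.20 in Zlike against ZS11. Its rise of 0.54 ± 0.22 in Slike against ZS11 came from overlapping libraries and was lost with DESeq2 (adjusted p = 0.092) and without Slike replicate 1 (0.060), Slike replicate 2 (0.18) or ZS11 replicate 3 (0.17). Its fall of 0.54 ± 0.18 in Slike against Zlike was lost with DESeq2 (adjusted p = 0.12) and without Slike replicate 3 (0.16) or Zlike replicate 1 (0.14).

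AGL19 on A08 (BnaA08G0128700ZS, bases 18174186 to 18177860, minus strand) was the most abundant AGL19 copy, at 13.1, 13.1 and 11.0 CPM in Slike, 15.4, 16.9 and 17.2 in Zlike, 4.88, 4.25 and 4.67 in SX3 and 9.62, 12.3 and 12.8 in ZS11. SX3 was again lowest and Zlike highest. The copy fell by 1.32 ± 0.13 in SX3 against ZS11 (edgeR adjusted p = 1.7e-17) and by 0.42 ± 0.09 in Slike against Zlike, and rose by 0.52 ± 0.10 in Zlike against ZS11. For AGL14 on A09 and C09 and AGL19 on A08, 0 of the 20 nearest tested genes fell as far in SX3 against ZS11.

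AGL19 on C07 (BnaC07G0446200ZS) had 88 counts in Slike, 143 in Zlike, 3 in SX3 and 66 in ZS11. SX3 was 20.3-fold lower than ZS11, with a 95% counting interval from 6.65 to 101. In Slike against Zlike it fell by 0.66 ± 0.22, a call lost with DESeq2 (adjusted p = 0.10) and without any of Slike replicate 2 (0.056), Slike replicate 3 (0.052), Zlike replicate 1 (0.072) or Zlike replicate 3 (0.10). AGL19 on A02 (BnaA02G0397900ZS), one of those with a SOC1-like match, was the 1 member that rose in Slike against Zlike, by 0.91 ± 0.19 (edgeR adjusted p = 5.7e-05). It was at 6.06, 7.54 and 3.03 CPM in Slike and 3.31, 2.73 and 2.79 in Zlike, so that Slike replicate 3 lay within the Zlike range, and DESeq2 did not call it (adjusted p = 0.10). Its fall of 0.90 ± 0.31 in SX3 against ZS11 was lost without SX3 replicate 2 (edgeR adjusted p = 0.080). The C03 copy with the AGL42-like match (BnaC03G0557800ZS) averaged 3.38, 4.21, 3.48 and 4.52 CPM in Slike, Zlike, SX3 and ZS11. Its fall of 0.38 ± 0.17 in SX3 against ZS11 (edgeR adjusted p = 0.046) and of 0.42 ± 0.18 in Slike against ZS11 (0.036) did not hold without ZS11 replicate 2 (adjusted p = 0.26 and 0.22) or with DESeq2 (0.14 and 0.075) or upper-quartile scaling (0.093 and 0.051). The first was also lost with no filter (0.051) and without SX3 replicate 1 (0.078), SX3 replicate 2 (0.062) or SX3 replicate 3 (0.11), and the second without Slike replicate 1 (0.16) or Slike replicate 3 (0.11). AGL19 on C02 (BnaC02G0530100ZS), also with a SOC1-like match and at 0.148 to 1.40 CPM, was called higher in Slike than in ZS11 and than in SX3 although the libraries overlapped, and neither call held with DESeq2 (adjusted p = 0.095 and 0.13) or without Slike replicate 2 (0.13 and 0.18) or Slike replicate 3 (0.060 and 0.088). The call against ZS11 was also lost without ZS11 replicate 1 (0.13) or ZS11 replicate 3 (0.10), and the call against SX3 without SX3 replicate 1 (0.28) or SX3 replicate 3 (0.20).

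**Figure D3:**
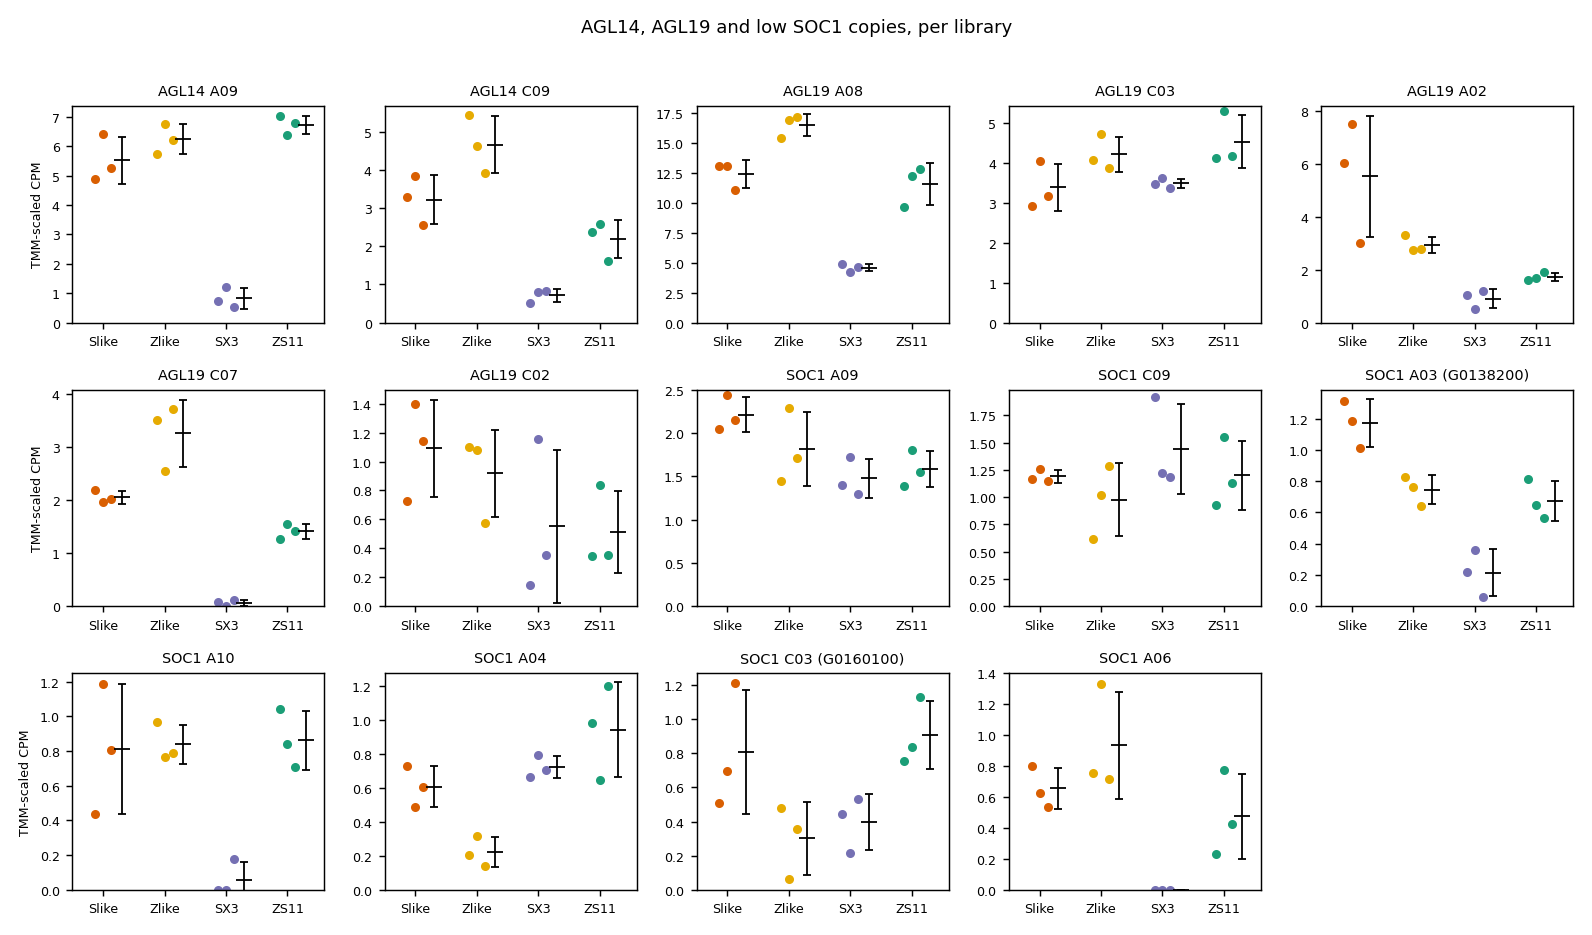
TMM-scaled CPM (y axis, from 0, its range set per panel) of the AGL14, AGL19 and low SOC1 copies that entered a test, in Slike, Zlike, SX3 and ZS11. Dots are libraries and black bars are the mean ± SD over 3 libraries; AGL14 on A09 lies at 0.832 CPM in SX3 and at 5.52 to 6.72 CPM in the other groups.

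Set against each other over all tested members, the comparisons gave different counts. In Slike against Zlike 24 members were tested, 1 rose and 11 fell, and 12 did not pass, beside 27.2% of all genes called, 13.8% higher and 13.4% lower. None of the 24 was called with a change of 2-fold or more, where 4.21% of all genes were. In Zlike against ZS11 26 were tested, 7 rose and 9 fell, beside 46.0% of all genes called, 23.1% higher and 22.9% lower. In Slike against ZS11 4 rose and 10 fell, beside 54.8% of all genes, 27.8% higher and 27.0% lower. In Slike against SX3 11 rose and 9 fell, beside 53.7% of all genes, 29.8% higher and 23.9% lower. In Zlike against SX3 11 rose and 10 fell, beside 59.8% of all genes, 30.2% higher and 29.6% lower. Changes of 2-fold or more were called in 8 members in Zlike against ZS11 (9.55% of all genes), 6 in Slike against ZS11 (13.7%), 15 in Slike against SX3 (17.3%), 14 in Zlike against SX3 (21.0%) and 8 in SX3 against ZS11 (26.3%). By name, SOC1, which held 11 of the 26 members tested, accounted for 6 of the 9 lower in Zlike than in ZS11. These include the rare A04 and C03 copies given above. SOC1, and SVP with 4 members tested, accounted for 4 each of the 9 lower in Slike than in SX3. AGL14 on C09 and AGL19 on A02 were higher in both backcross classes than in both parents in all 4 comparisons, beside 2.68% of all genes. For AGL14 on C09 this rests on the Slike against ZS11 call that several alternatives ended, as given above.

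**Figure D4:**
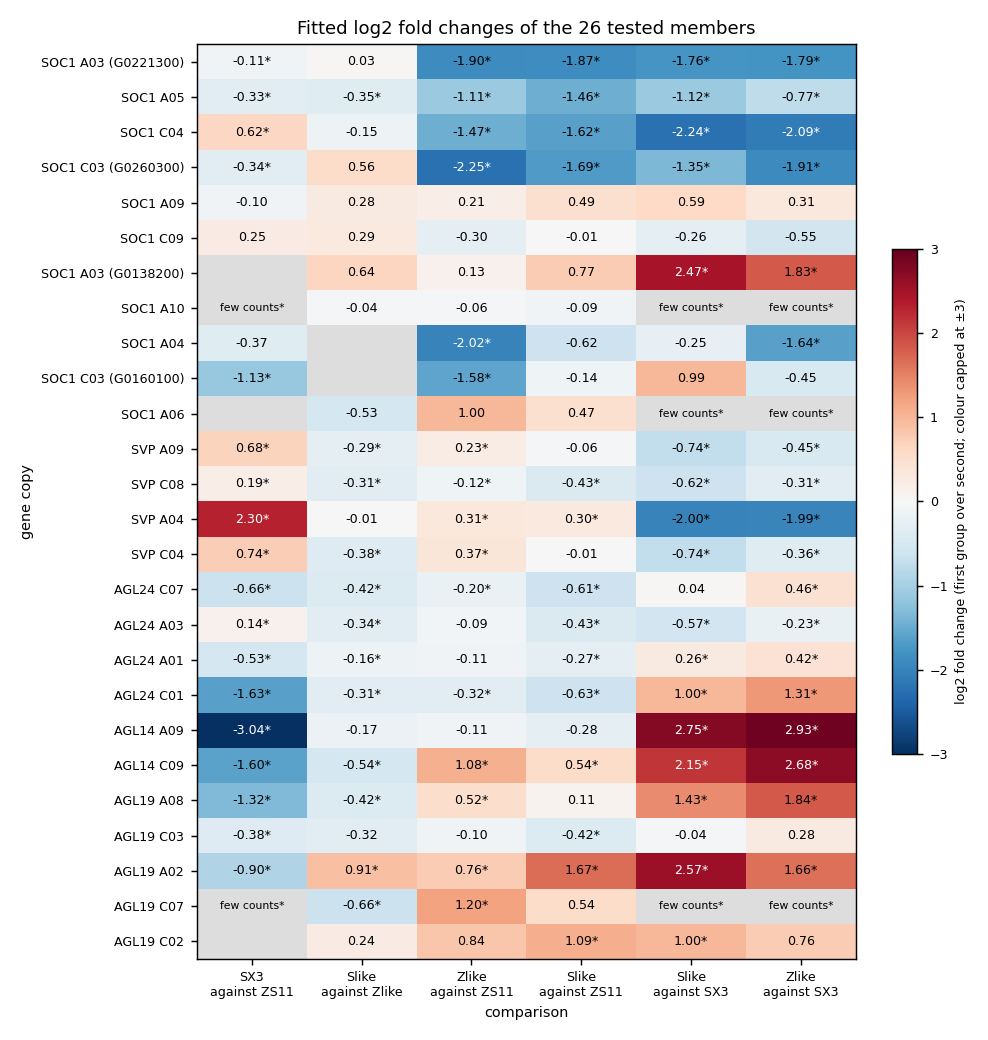
Log2 fold change (colour and number, first group over second) of the 26 tested members (rows) in 6 comparisons (columns); an asterisk marks an edgeR adjusted p under 0.05. Grey cells were not tested, or had a group with at most 3 counts (marked few counts); the first 4 SOC1 rows are blue in all 4 columns that set a backcross class against a parent, and SVP on A04 is 2.30 in SX3 against ZS11.

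The mutant-against-WT difference itself was compared between backcross classes and parents, as (Slike − Zlike) − (SX3 − ZS11). Of 26 members 14 were higher, 6 lower and 6 not called in this test, beside 53.3% of all genes called, 30.1% higher and 23.2% lower. All 4 SVP copies were lower, from -0.50 ± 0.06 on C08 to -2.31 ± 0.11 on A04 on the log2 scale, SVP being higher in SX3 than in ZS11 but not in Slike than in Zlike. For AGL24 the difference on C01 was 1.32 ± 0.11 and on C07 0.24 ± 0.08. SOC1 on A03 gave 0.14 ± 0.08 and did not pass (edgeR adjusted p = 0.14), but was called without Slike replicate 3, at 0.22 (adjusted p = 0.023). SOC1 on A05 gave -0.02 ± 0.11 (adjusted p = 0.91), with a 95% interval from -0.24 to 0.20.

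**Figure D5:**
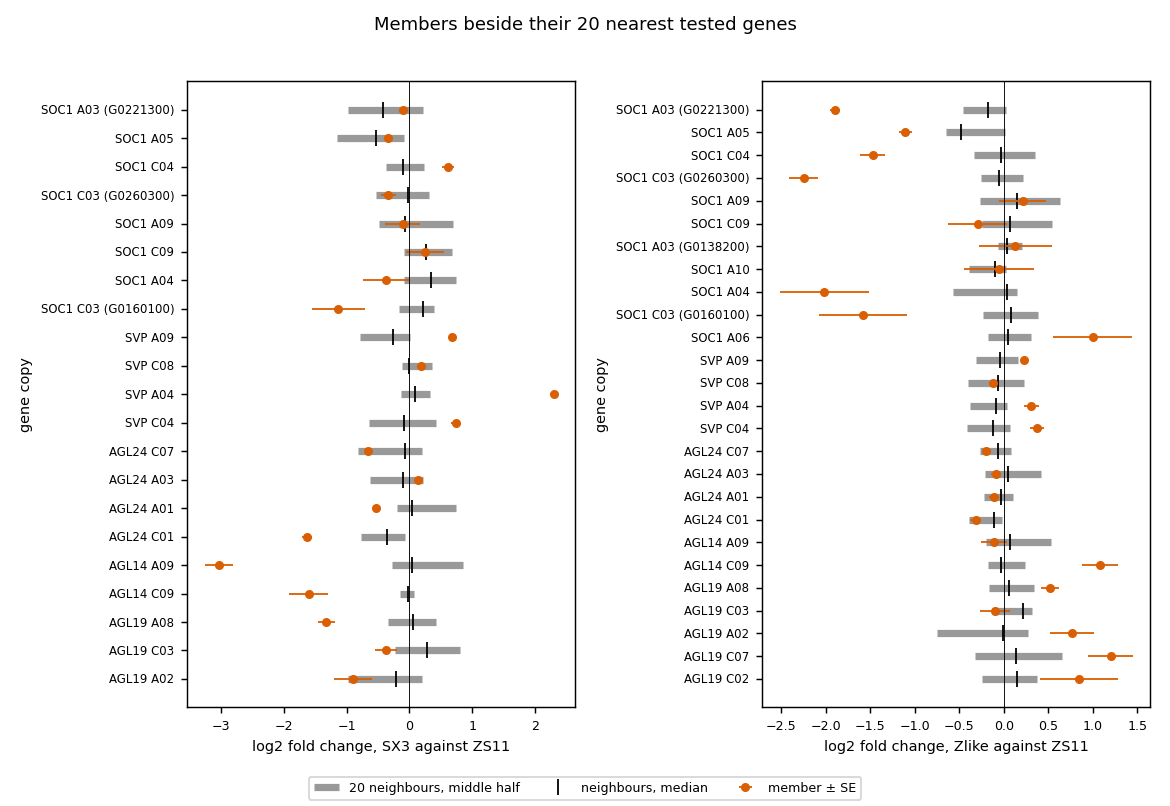
Log2 fold change (x axis) of each member (dot, ± SE) and of its 20 nearest tested genes on the chromosome (grey bar, middle 50%; tick, median), for SX3 against ZS11 (left) and Zlike against ZS11 (right); copies with at most 3 counts in a group are left out. SVP on A04 at 2.30 and AGL14 on A09 at -3.04 lie outside their neighbours' bars on the left, and the first 4 SOC1 copies do so on the right.

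Among 21879 other named and expressed genes, the 3 most like SOC1 on A03 over the 12 libraries were GSTU13 on C05 (BnaC05G0214400ZS, a glutathione transferase, Pearson r = 0.996), BGLU18 on A05 (BnaA05G0167400ZS, a beta-glucosidase, r = 0.995) and MS1 on A03 (BnaA03G0075900ZS, a methionine synthase, r = 0.994). GSTU13 averaged 28.7, 28.0, 59.9 and 64.1 CPM in Slike, Zlike, SX3 and ZS11. Most like SVP on A09 were EXPA3 on C04 (BnaC04G0089800ZS, an expansin, r = 0.995), PHOT1 on C03 (BnaC03G0576900ZS, a blue-light receptor, r = 0.982) and ELF5A-2 on C03 (BnaC03G0624800ZS, a translation factor, r = 0.979). Most like AGL24 on C07 were ATHB-13 on C02 (BnaC02G0242700ZS, a homeodomain factor, r = 0.984), SBT1.6 on A03 (BnaA03G0337300ZS, a subtilase, r = 0.975) and At3g61750 on C06 (BnaC06G0232600ZS, r = 0.975). The 12 points fall into 4 groups that share genotype, so r describes mainly the group means.

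Genes that act upstream of SOC1 in Arabidopsis, such as FLC, FT, CO and SPL9, were called no more often than genes at large in comparisons against ZS11. In Slike against Zlike, Slike against SX3 and Zlike against SX3 they were called more often, by small margins. The list holds repressors of SOC1 such as FLC beside other genes, so its median gives no direction of input to SOC1. For this list 14 of 15 names were found, as 73 genes, of which 55 were tested in SX3 against ZS11: 15 rose, 21 fell and 19 did not pass, with a median log2 fold change of 0.02 beside -0.01 over all genes, where 33.4% rose and 35.9% fell. In Zlike against ZS11, where SOC1 was low, 12 rose, 9 fell and 34 did not pass, beside 23.1% of all genes higher and 22.9% lower. In Slike against ZS11 16 rose, 12 fell and 27 did not pass, beside 27.8% higher and 27.0% lower. In Slike against SX3 23 rose, 8 fell and 24 did not pass, beside 29.8% higher and 23.9% lower. In Zlike against SX3 23 rose, 11 fell and 21 did not pass, beside 30.2% higher and 29.6% lower. In Slike against Zlike, with 52 tested, 7 rose, 11 fell and 34 did not pass, beside 13.8% higher and 13.4% lower. The most abundant were 3 copies of MSI4, a chromatin protein of the autonomous flowering pathway. MSI4 on A07 (BnaA07G0011200ZS) averaged 84.3 ± 1.51 CPM in Slike, 74.4 ± 1.95 in Zlike, 79.0 ± 3.51 in SX3 and 70.5 ± 2.22 in ZS11. It rose by 0.16 ± 0.04 in SX3 against ZS11 and by 0.18 ± 0.04 in Slike against Zlike. The A09 (BnaA09G0608600ZS) and C08 (BnaC08G0462300ZS) copies did not pass in SX3 against ZS11, at -0.09 ± 0.04 and 0.07 ± 0.04. The A09 copy passed without SX3 replicate 3 (edgeR adjusted p = 0.0073), without ZS11 replicate 3 (0.0087) and with no filter (0.045), and the C08 copy passed under upper-quartile scaling (0.0046).

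Partners and targets of these factors, among them LFY, AP1, CAL and SEPALLATA genes, were found for 17 of 23 names as 80 genes. In Slike against ZS11 43 of 62 rose and 9 fell, with a median log2 fold change of 0.61 beside 0.01 over all genes, where 27.8% rose and 27.0% fell. In SX3 against ZS11 29 of 58 rose and 13 fell, beside 33.4% of all genes higher and 35.9% lower. In Zlike against ZS11 31 of 62 rose and 10 fell, beside 23.1% higher and 22.9% lower. In Slike against SX3 34 of 62 rose and 9 fell, beside 29.8% higher and 23.9% lower. Summed SOC1 was lower in every comparison of a backcross class with a parent. The list leaned higher in Slike against ZS11, Zlike against ZS11 and Slike against SX3, but lower in Zlike against SX3. A link between the SOC1 level and this list was not tested. In Slike against Zlike 28 of 62 rose and 6 fell, beside 13.8% higher and 13.4% lower. In Zlike against SX3 16 of 62 rose and 34 fell, beside 30.2% higher and 29.6% lower. SEP1 and SEP2 belong to this list and to the floral organ markers. TFL1, which keeps the shoot apex from becoming a flower, rose on A03 (BnaA03G0012400ZS) by 0.41 ± 0.05 in Zlike against ZS11 and fell by 0.39 ± 0.05 in Slike against Zlike. It averaged 48.1 ± 1.33, 63.1 ± 1.22, 45.5 ± 2.47 and 47.5 ± 3.98 CPM in Slike, Zlike, SX3 and ZS11. LUG, a floral corepressor, rose on C07 (BnaC07G0509700ZS) by 0.29 ± 0.05 and fell on A01 (BnaA01G0052900ZS) by 0.15 ± 0.05 in SX3 against ZS11, and the A01 call did not hold under upper-quartile scaling (adjusted p = 0.10).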

How the data were processed

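RNA-seq libraries of apical meristems, 3 per group, were grouped by sample title. The authors deposited whole-number read counts per gene, without normalization, per the file headers, and FPKM values in the same table. FPKM recomputed from count, gene length and library total differed from the deposited FPKM by at most 5.1e-15 of the value, so FPKM was used only to order levels between genes. Lengths of 36 of the 37 members are multiples of 3, beside 88.1% of all genes, so they may be coding lengths, which was not tested. The exception is SOC1 on A09 (BnaA09G0077400ZS), at 1000 bases. Per the submitters' processing notes, fastp, HISAT2 and featureCounts were used. The sources used here give neither genome build nor strand setting nor how multi-mapping reads were counted. Reads of near-identical copies may therefore have been split, and every single-copy value is uncertain to that extent. Coordinates are those of the deposited table. The authors' own comparison tables were not used here.

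The counts went into edgeR 4.0.16 (R 4.3.3), filtered by filterByExpr with TMM scaling. Its two-sided quasi-likelihood test was used, p-values were adjusted (Benjamini-Hochberg) over every gene that passed the filter, and an adjusted p under 0.05 was a call. The mutant-against-WT contrasts within parents and within classes used only their own 6 libraries, all other comparisons all 12. Standard errors follow from the fold change and its F statistic. The script was tested on simulated data with known changes. Alternatives were upper-quartile and DESeq2 scaling, no filter, DESeq2 1.42.0, leaving out each replicate, a replicate block, and the other set of libraries.

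The members and the gene lists were chosen with earlier results of these data known. Every member was accounted for. The named similar genes were the 3 non-members with the highest Pearson r of log2 CPM (prior count 3, mean of at least 5 CPM) for the copy of SOC1, SVP and AGL24 with the highest mean CPM, which for AGL24 is C07 although A03 is higher per length, and the named list genes were the 3 most abundant copies of each list. A and C partners were taken from gene names shared among the 10 genes on each side. No sequence is shown.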

Additional observations from a re-analysis of the deposited data

Results flagged for a closer look

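The difference between mutant-labelled and WT-labelled plants was itself different in the backcross classes and in the parents for 20 members, by the test of (Slike − Zlike) − (SX3 − ZS11) in edgeR, beside 53.3% of all genes tested. Values are on the log2 scale.

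Among SVP copies the value was -2.31 ± 0.11 on A04 (edgeR adjusted p = 1.1e-42), -1.11 ± 0.11 on C04, -0.96 ± 0.05 on A09 and -0.50 ± 0.06 on C08. Among AGL24 copies it was 1.32 ± 0.11 on C01, 0.37 ± 0.09 on A01, 0.24 ± 0.08 on C07 and -0.48 ± 0.08 on A03. AGL14 gave 2.86 ± 0.27 on A09 and 1.07 ± 0.36 on C09. AGL19 gave 0.90 ± 0.16 on A08, 1.81 ± 0.37 on A02 and 3.56 ± 0.65 on C07, where SX3 held 3 counts.

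SOC1 gave -0.76 ± 0.21 on C04, 0.89 ± 0.24 on C03 (BnaC03G0260300ZS) and, among rare copies, 2.34 ± 0.66 on A03 (BnaA03G0138200ZS), 2.57 ± 0.68 on C03 (BnaC03G0160100ZS) and 3.50 ± 0.82 on A10. On A06 the fitted value of 5.30 ± 1.39 depends on the prior count and is no bound, since SX3 held 0 counts. SOC1 on A04 gave 1.77 ± 0.68 (edgeR adjusted p = 0.022), a call lost without ZS11 replicate 3 (0.061), Zlike replicate 3 (0.065) or Slike replicate 1 (0.059).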

How the results depend on the processing

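Of 2777 recomputed member and named-gene differences, 2590 kept their direction and side of the threshold, 90 lost the call, 30 gained it, 67 changed sign without being called in either fit, and 0 called differences reversed. Over all genes, DESeq2 called 8272 in Slike against Zlike, where edgeR called 13447. Leaving out each library in turn gave 17 to 19 members called in SX3 against ZS11, 9 to 12 in Slike against Zlike, 16 to 18 in Zlike against ZS11, 12 to 13 in Slike against ZS11, 19 to 22 in Slike against SX3, 21 to 23 in Zlike against SX3 and 19 to 21 in the difference of differences. Replicate numbers did not pair the libraries: deviations of same-numbered libraries correlated at -0.014 to 0.013, with 0 of 18 pairs over 0.1. With the replicate block, 19 members were called in SX3 against ZS11 and 12 in Slike against Zlike, and over all genes 34412 and 13300. The block ended the SX3 against ZS11 call of AGL19 on C03 (BnaC03G0557800ZS, adjusted p = 0.054). Copies with few counts are limited by depth, and a gene at 0 may hold up to 3 counts in a library.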

Other observations

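A further 12 genes carry the name MADS50, the rice counterpart of SOC1, and fall outside the naming rule because rice is no mustard-family species. Of these, 10 had at most 6 counts in a library. The other 2 lie next to SOC1-named genes on A10 and C09. The A10 gene (BnaA10G0089200ZS) averaged 3.00 ± 0.449 CPM in Slike, 1.79 ± 0.440 in Zlike, 3.02 ± 0.218 in SX3 and 2.76 ± 0.391 in ZS11, and the C09 gene (BnaC09G0339900ZS) averaged 1.91 ± 0.266, 1.60 ± 0.406, 3.31 ± 1.35 and 1.35 ± 0.538 CPM in Slike, Zlike, SX3 and ZS11 (SD, n = 3 each). The C09 gene rose by 1.27 ± 0.25 on the log2 scale in SX3 against ZS11 (edgeR adjusted p = 2.4e-06). It fell by 0.80 ± 0.24 in Slike against SX3 (0.0033) and by 1.06 ± 0.25 in Zlike against SX3 (0.00013). The A10 gene rose by 0.73 ± 0.24 in Slike against Zlike (edgeR adjusted p = 0.012). It fell by 0.61 ± 0.23 in Zlike against ZS11 (0.021) and by 0.74 ± 0.23 in Zlike against SX3 (0.0031).

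Summed levels of the remaining marker lists differed between the groups as well. Green tissue genes (5 names, 32 genes) summed to 2991 to 3019 CPM in Slike, 2670 to 2787 in Zlike, 1631 to 1659 in SX3 and 5119 to 5190 in ZS11. Vascular genes (5 names, 53 genes) summed to 179 to 182 CPM in Slike, 203 to 207 in Zlike, 195 to 202 in SX3 and 248 to 260 in ZS11. The 32 APL-named genes gave most of this, at 150, 182, 150 and 224 CPM in Slike, Zlike, SX3 and ZS11, whereas CESA4, CESA7, CESA8 and SUC2 were all higher in SX3 than in ZS11, such as CESA7 at 21.7 against 16.3 CPM. Anther and tapetum genes (4 names, 12 genes) summed to 168 to 178 CPM in Slike, 145 to 151 in Zlike, 115 to 121 in SX3 and 152 to 155 in ZS11. EMS1 gave most of this, at 148, 148, 116 and 153 CPM in Slike, Zlike, SX3 and ZS11, while the anther regulator AMS had 485 counts in Slike, 1 in Zlike and 0 in SX3 and ZS11, and DYT1 had 486 counts in Slike, 3 in Zlike, 3 in SX3 and 9 in ZS11.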
